A study of Sus scrofa with 8 samples.

Results

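Sulfotransferases (SULT), UDP-glucuronosyltransferases (UGT) and glutathione S-transferases (GST, and MGST for the microsomal ones) were examined in pig liver at 2 ages. Members were taken by name: every mRNA identifier whose pig gene symbol begins with SULT, UGT, GSTA, GSTM, GSTP, GSTT, GSTO, GSTK, GSTZ or MGST. Of the 21607 identifiers in the mRNA table, 11654 (53.9%) could be given a symbol, and 12 of these were members. They comprised 5 SULT genes (SULT1A3, SULT1C2, SULT1C3, SULT2B1 and SULT4A1), 6 cytosolic GST genes (GSTA4, GSTM3, GSTO1, GSTO2, GSTT4 and GSTZ1) and MGST3. No UGT symbol was matched, so glucuronosyltransferases were not analysed here, although the group of genes carries their name. A further 9 symbols of these families, among them SULT1E1, SULT2A1, MGST1, GSTK1 and UGT8, belong to other identifiers in the naming table and were not analysed here. SULT1B1 is described beside the members because the study gives this name to ENSSSCG00000027194, whereas the naming table gives it to a different identifier. The study picked SULT1B1 as lower in old livers on these samples, so its direction here is not independent evidence.

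The livers came from unrelated and healthy sows of the Chinese Yana breed (also spelled Yanan). The young group consisted of 2 sows at 180 days after birth that had not yet given birth, and the old group of 2 sows at 8 years after birth that had farrowed for many years and were being culled. Age, parity and culling therefore cannot be told apart. Each liver gave 1 rRNA-depleted RNA-seq library, no animals were pooled, and no treatment was given.

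These enzymes carry out the conjugation step of detoxification. SULT enzymes move a sulfonate group from the donor PAPS to hydroxyl and amine groups of hormones, bile acids, phenols and drugs. UGT enzymes add glucuronic acid from UDP-glucuronic acid, and GST enzymes join reduced glutathione to electrophilic compounds, including products of lipid peroxidation. Hepatocytes hold much of the body's capacity for all these reactions.

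Values are CPM, read counts scaled to a common library total, which the authors name TPM but which contain no gene length, so levels are compared between libraries and never between genes. Whole reads could be recovered from them, 37555696 and 37125093 on mRNAs in the young libraries against 22482241 and 24866406 in the old ones. Differences are given on log2(CPM + 1), old minus young, with the standard error (SE) and Benjamini-Hochberg adjusted p of limma over 16898 mRNAs above 0 in at least 2 libraries. This scale understates the change of genes with low values. A call needed an adjusted p under 0.05 and an absolute log2 fold change above 1.

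Hepatocyte markers were detected in all 4 livers. Of a list of 15 such markers, 12 had an identifier, and their median log2(CPM + 1) was 10.17 and 10.24 in young replicates 1 and 2, 9.83 in old replicate 1 and 10.05 in old replicate 2. These markers summed to 51369 and 57929 CPM in young against 35663 and 42563 CPM in old livers. Markers of intestinal and kidney epithelium had a median log2(CPM + 1) of at most 0.03 in every library. One of them, VIL1, which encodes villin, was at 4.32 CPM in young replicate 2 and at 0.653, 0.244 and 0.613 CPM in young replicate 1 and old replicates 1 and 2. Old replicate 1 stood apart from the other libraries in interferon-stimulated genes, of which 18 of 18 with an identifier lay above both young livers. Their summed level was 2104 CPM there against 101 and 118 CPM in young livers and 80.0 CPM in old replicate 2. Values without this library are given for the members whose log2 fold change it decides. The part of the interferon-stimulated genes in the results below was not tested. In bulk tissue, fewer cells of a type and less RNA per cell cannot be told apart.

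No member was called different between the ages. By limma, 0 of the 12 members passed the thresholds, against 0% of all mRNAs tested, of which 2654 had an unadjusted p under 0.05. SULT1B1 was not called by limma either. With the same fold threshold but an unadjusted p under 0.05, limma took 0 of the 12, against 2.96% of all mRNAs tested in the lower direction and 2.79% in the higher one (500 and 471 mRNAs, or 304 and 645 under TMM scaling). The smallest unadjusted p of limma among the 12 was 0.055, for GSTO1. On recovered reads the exact test of edgeR, the kind of test the study used, also called 0 of the 12, against 0.32% of mRNAs called lower and 2.04% called higher in old livers. Its unadjusted p was under 0.05 for GSTM3 and SULT2B1, and that of edgeR's quasi-likelihood test, with 0 calls, for SULT2B1. SULT2B1 had 0 reads in both young libraries and was tested only through its reads in the old livers, so its p is no support. SULT1B1 was called lower by the exact test.

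**Figure D1:**
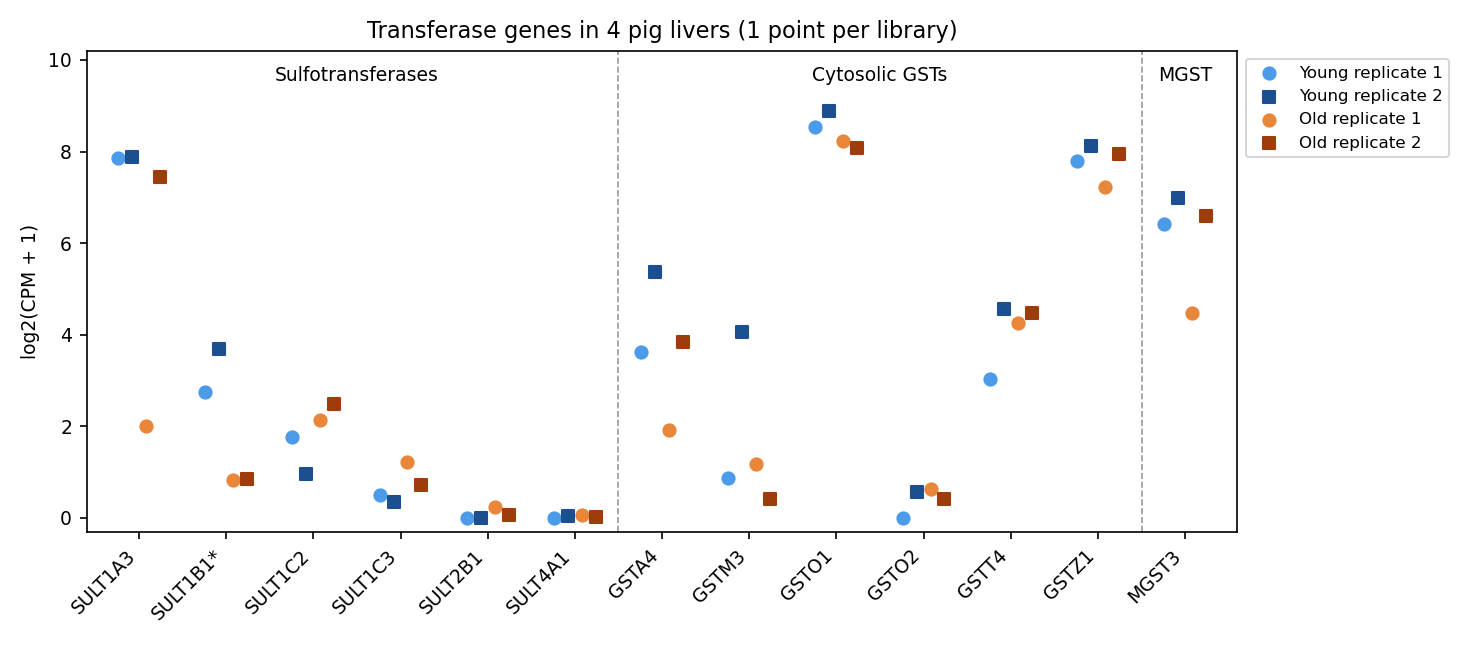
Level of each transferase gene as log2(CPM + 1) on the vertical axis, with 1 point per library (2 young and 2 old livers, no error bars). The asterisk marks SULT1B1, named by the study. The 2 old points of SULT1B1 lie together below both young points, whereas SULT1A3 is low in old replicate 1 only, at 3.04 CPM.

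SULT1B1 was lower in both old livers than in both young livers, by about the same amount in each. The enzyme sulfonates thyroid hormones and small phenols in liver and gut. It was at 5.77 CPM in young replicate 1 and 11.9 CPM in young replicate 2 (530 and 1027 reads), against 0.780 and 0.807 CPM, or 48 and 58 reads, in old replicates 1 and 2. The old livers lay close to each other, and the young livers differed 2.06-fold. The mean was 8.82 ± 4.31 CPM (SD, n = 2) in young and 0.794 ± 0.0191 CPM (SD, n = 2) in old livers, 11.1-fold higher in the young. The log2 fold change was -2.38 (SE 0.38, adjusted p = 0.216, limma), which ranked 489 of 16898 mRNAs by p.

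In the exact test of edgeR the log2 fold change of SULT1B1 was -3.28 with an adjusted p of 0.00265, the rank 14 by p among 54 mRNAs called lower. The quasi-likelihood test of edgeR on the same reads gave an adjusted p of 0.276. The call of the exact test was lost without old replicate 1 (adjusted p = 0.221) and without old replicate 2 (adjusted p = 0.102), while the log2 fold change was -3.26 and -3.31. Without young replicate 1 or young replicate 2 the call held, with adjusted p of 0.000188 and 0.0192. The size of the difference thus varied little with the old liver used, and the call needed both.

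The study pairs SULT1B1 with the lncRNA MSTRG.205482. This lncRNA was at 62.5 and 93.9 CPM in young replicates 1 and 2 against 5.09 and 12.03 CPM in old replicates 1 and 2. Both RNAs were highest in young replicate 2 and lower in both old livers. The study chose both as lower in old livers on these samples and lists the pair with a Pearson correlation. Their shared pattern is therefore not independent evidence.

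Among 6100 other mRNAs with a symbol and a mean of at least 1 CPM, the pattern nearest to that of SULT1B1 was that of MT3, by Euclidean distance of log2(CPM + 1) after centring each gene on its mean over the 4 libraries. MT3, a metallothionein by name, was at 3458 and 5325 CPM in the young sows against 862 and 936 CPM in the old livers, a distance of 0.258. UGP2, which makes UDP-glucose, came next at 0.340, followed by the leptin receptor LEPR at 0.397, the nucleotide phosphodiesterase ENPP3 at 0.404 and DMRT1 at 0.422. All 5 were lower in both old livers than in both young livers. The study gives the name ENPP3 to a different identifier, which it lists beside SULT1B1 as a lower target of the same lncRNA. With 4 libraries, such closeness is a description only.

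SULT1A3, by its symbol a sulfotransferase of the SULT1A class, was at 232 and 233 CPM in young replicates 1 and 2. It was at 3.04 CPM in old replicate 1 and 173 CPM in old replicate 2 (187 and 12456 reads). Old replicate 1 was thus 76.6-fold below the young mean and old replicate 2 only 1.34-fold. The age groups did not overlap, but the old livers differed 57.1-fold from each other, and the mean of 88.2 ± 120.5 CPM (SD, n = 2) describes neither of them. Its log2 fold change was -3.14 (SE 2.13, adjusted p = 0.570, limma). It was -5.85 without old replicate 2 and -0.42 without old replicate 1, so old replicate 1 decided its size. SULT1A3 was the only SULT1A symbol matched. How the authors' counting divided reads among genes of similar sequence is not given in the sources used here.

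The SULT1C enzymes, which sulfonate phenols and hydroxylated aromatic amines, showed the opposite order. SULT1C2 was at 2.43 and 0.947 CPM in young replicates 1 and 2 against 3.38 and 4.64 CPM in old replicates 1 and 2. Both old livers lay above both young livers, with a log2 fold change of 0.94 (SE 0.37, adjusted p = 0.367, limma). SULT1C3 was at 0.414 and 0.277 CPM in the young sows against 1.33 and 0.654 CPM in the old livers (38, 24, 82 and 47 reads). It also did not overlap between the age groups, with a log2 fold change of 0.55 (SE 0.23, adjusted p = 0.394, limma). With 1 library left out, the log2 fold change ranged from 0.54 to 1.35 for SULT1C2 and from 0.30 to 0.80 for SULT1C3. The lack of overlap fixes the direction of these values in advance, so they are no added support.

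The remaining SULT genes were barely detected. SULT2B1, which sulfonates cholesterol and other hydroxysteroids, had 0 reads in both young libraries and 11 and 3 reads in old replicates 1 and 2. A count of 0 allows up to 3 reads, or 0.0327 and 0.0347 CPM in young replicates 1 and 2. The old mean of 0.111 CPM was 3.28-fold the mean of these limits, but old replicate 2 itself had only 3 reads (0.042 CPM). This ratio is no lower bound, because the counting error of the old livers is not in it, and it rests mainly on old replicate 1. SULT2B1 was tested only because it was above 0 in the old livers. SULT4A1, a brain sulfotransferase, had 0 and 2 reads in the young libraries and 3 and 1 reads in the old ones, which is at the limit of detection everywhere. Intervals and limits from read counts cover counting error only.

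**Figure D2:**
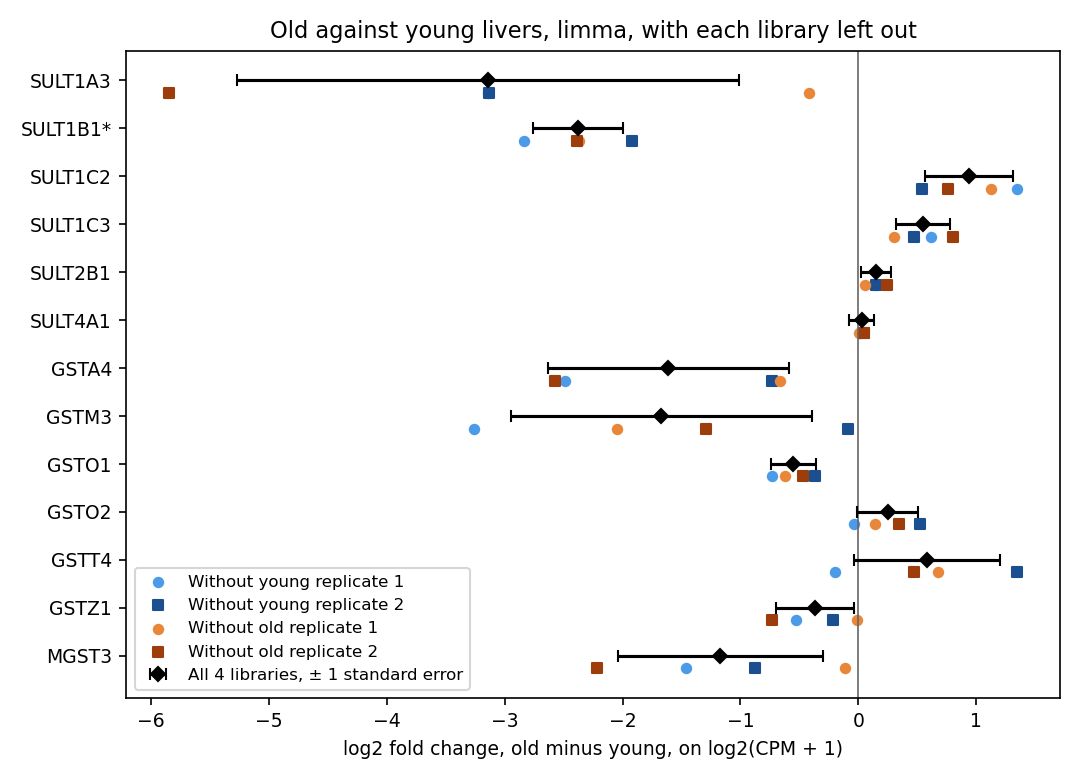
Difference between old and young livers of each gene on log2(CPM + 1), horizontal axis. Black diamonds with bars give the estimate of limma over all 4 libraries ± 1 standard error, and the smaller points below them the estimate with each library left out. SULT1A3 moves from -3.14 to -0.42 without old replicate 1, and SULT1B1 stays between -2.84 and -1.92.

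GSTO1 was the cytosolic GST with the steadiest difference. It belongs to the omega class, which reduces dehydroascorbate and thiol conjugates. It was at 368 and 473 CPM in young replicates 1 and 2 against 300.4 and 270.4 CPM in old replicates 1 and 2. Both old livers lay below both young livers, and the old values were the closest pair. The mean was 420.4 ± 74.3 CPM (SD, n = 2) in young and 285 ± 21.2 CPM (SD, n = 2) in old livers, a ratio of 0.679. On the log2 scale the change was -0.55 (SE 0.19, adjusted p = 0.330, limma), from -0.73 to -0.37 with 1 library left out, and -0.35 under TMM scaling. Its relative GSTO2 had 0, 41, 34 and 24 reads in young replicates 1 and 2 and old replicates 1 and 2, and the ages overlapped.

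GSTZ1, the maleylacetoacetate isomerase of tyrosine breakdown, was at 221 and 277 CPM in the young sows against 149 and 246 CPM in old replicates 1 and 2. Only old replicate 1 lay below both young livers, and the log2 fold change of -0.37 (SE 0.33, adjusted p = 0.662, limma) was -0.011 without that library.

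GSTA4, the alpha class enzyme that conjugates the lipid peroxidation product 4-hydroxynonenal, varied within both ages. It was at 11.2 and 40.4 CPM in young replicates 1 and 2 against 2.80 and 13.3 CPM in old replicates 1 and 2. The young livers differed 3.60-fold and the old livers 4.75-fold, and old replicate 2 lay between the young livers. This gave a log2 fold change of -1.61 (SE 1.02, adjusted p = 0.545, limma), ranging from -2.57 without old replicate 2 to -0.66 without old replicate 1.

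GSTM3, of the mu class, was high in a single young liver. It was at 0.838 CPM in young replicate 1 and 15.6 CPM in young replicate 2, an 18.6-fold difference within the age, against 1.25 and 0.334 CPM in old replicates 1 and 2. The log2 fold change of -1.67 (SE 1.28, adjusted p = 0.613, limma) was -0.085 without young replicate 2. VIL1 was also highest in young replicate 2, and its part in this value was not tested. In the exact test of edgeR its unadjusted p was 0.00653 and its adjusted p 0.137.

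GSTT4, of the theta class, was lowest in a young liver. It was at 7.13 and 22.7 CPM in young replicates 1 and 2 against 18.2 and 21.2 CPM in the old livers. Both old values lay between the young ones. Its log2 fold change was 0.58 (SE 0.62, adjusted p = 0.720, limma) and turned to -0.20 without young replicate 1.

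MGST3, a membrane-bound transferase with glutathione peroxidase activity, was at 84.3 and 127 CPM in young replicates 1 and 2, 21.3 CPM in old replicate 1 and 95.9 CPM in old replicate 2. Old replicate 2 lay within the young range and old replicate 1 was 4.95-fold below the young mean. The log2 fold change of -1.17 (SE 0.87, adjusted p = 0.602, limma) was -0.11 without old replicate 1.

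By family, the median log2 fold change was 0.15 over the 5 SULT genes, -0.46 over the 6 cytosolic GST genes and -0.17 over all 12 members, beside -0.023 over all mRNAs tested. The median of all 12 was 0.22 in both tests of edgeR and -0.0034 without old replicate 1, so its direction varied with the method, and that of the GST genes was -0.25 in both tests of edgeR and -0.15 without young replicate 2. Of the 12, 6 had a lower and 6 a higher mean in old livers. The 5 SULT members were divided, with SULT1A3 lower and the other 4 higher on average, and their median rests on genes near the limit of detection. SULT1B1, which is not among them, was lower. Of the GST genes, 4 of 6 had a lower mean.

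The summed SULT level was 235 CPM in each young liver, 7.98 CPM in old replicate 1 and 179 CPM in old replicate 2. SULT1A3 held between 38.1% and 99.5% of the reads behind this sum. Without it the sum was 2.84 and 1.25 CPM in the young and 4.94 and 5.35 CPM in the old livers. These sums leave out SULT1B1, which was at 5.77 and 11.9 CPM in the young and 0.780 and 0.807 CPM in the old livers. The higher sum of the old livers without SULT1A3 therefore depends on leaving SULT1B1 out. The summed level of cytosolic GST genes was 608 and 829 CPM in young replicates 1 and 2 and 472 and 551 CPM in old replicates 1 and 2. As deposited, both old sums were thus below both young sums, with a ratio of the means of 0.712. TMM scaling multiplied young replicate 1 by 0.912 and old replicate 2 by 1.071, after which the sums of these libraries changed order. The ratio was then 0.815. GSTO1 held between 49.1% and 63.6% of the reads behind the GST sums. With 2 livers against 2, a two-sided exact permutation test cannot give a p below 0.333, so no p is given for sums.

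Both old livers lay below both young livers for 2 of the 12 members, SULT1A3 and GSTO1, against 25% of all mRNAs tested. Both lay above for 3 of the 12, SULT1C2, SULT1C3 and SULT2B1, against 24.4%. SULT2B1, with 0 reads in both young libraries, was tested only because of the old livers, so its place here was fixed in advance. With so few members, both counts were near the background shares. Taken singly, old replicate 1 was below both young livers for 5 of the 12 members (GSTA4, GSTO1, GSTZ1, MGST3 and SULT1A3), against 35.4% of all mRNAs tested, and old replicate 2 for 3 of the 12 (GSTM3, GSTO1 and SULT1A3), against 35.5%.

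**Figure D3:**
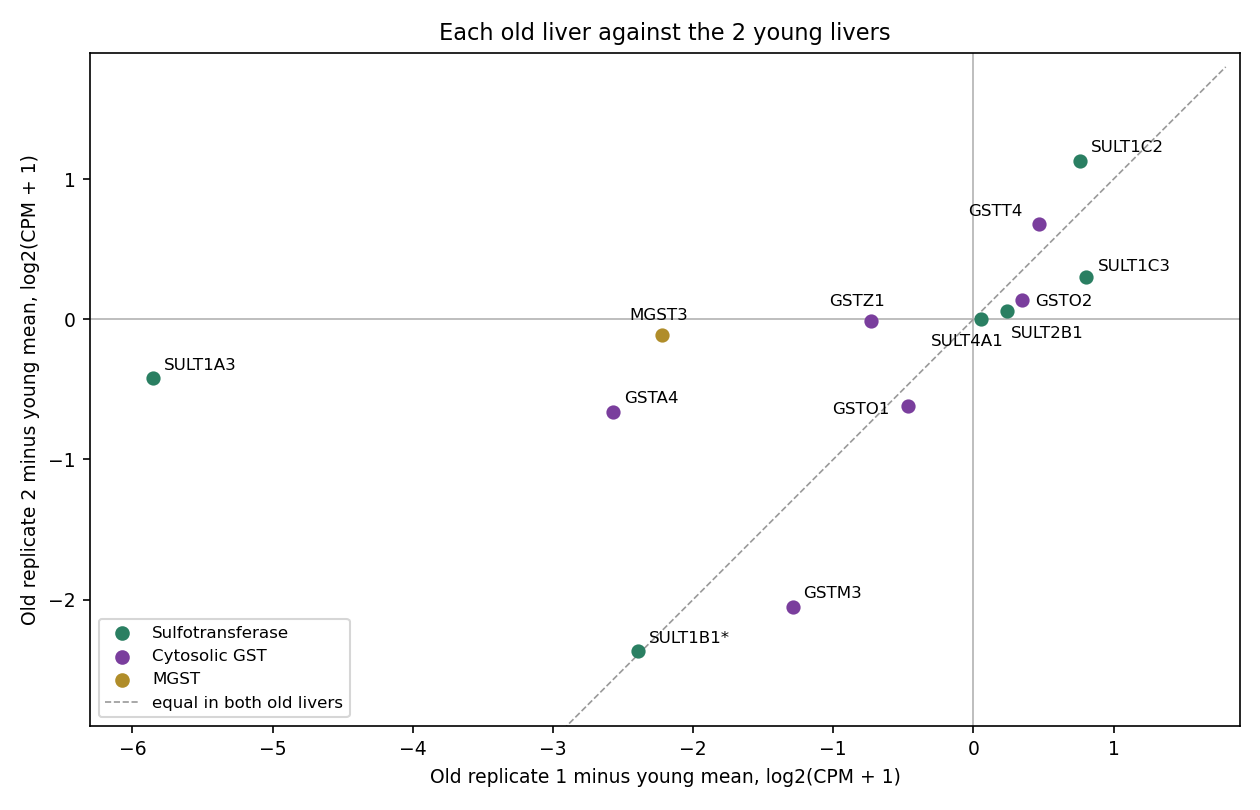
Each transferase gene by its difference from the mean of the 2 young livers in old replicate 1 (horizontal axis) and old replicate 2 (vertical axis), both on log2(CPM + 1). On the dashed line both old livers differ equally. SULT1B1 lies on it at -2.39 and -2.37, while SULT1A3, GSTA4 and MGST3 lie far to its left, at -5.85, -2.57 and -2.22 in old replicate 1.

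The conjugation donors have their own enzymes. Of a list of 12 genes for the supply of PAPS and UDP-sugars, 7 had an identifier. As deposited, all 7 had a lower mean in old livers, with a median log2 fold change of -0.59, and 52.9% of all mRNAs tested had a negative log2 fold change. The log2 fold change of SLC35B4 was only -0.011, and that of BPNT1 was 0.015 in the exact test of edgeR. Of the 7, 4 did not overlap between the ages, against 25% of all mRNAs tested. TMM scaling multiplied young replicate 2 by 0.954 and old replicate 2 by 1.071, after which PAPSS2, 1 of these 4, overlapped. Limma called 0 of the 7 and took 1 as lower by the unadjusted thresholds above, against 2.96% of all mRNAs tested. The exact test of edgeR called 1 lower, against 0.32% of all mRNAs.

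That gene was UGP2, the UDP-glucose pyrophosphorylase upstream of UDP-glucuronic acid. It was at 45.1 and 62.5 CPM in young replicates 1 and 2 against 8.56 and 9.30 CPM in old replicates 1 and 2. The old livers lay close together and far below the young, with a log2 fold change of -2.45 (SE 0.21, adjusted p = 0.213, limma; adjusted p = 0.0187, exact test of edgeR). UGDH, which oxidises UDP-glucose to UDP-glucuronic acid, was at 11.03 and 23.0 CPM in the young sows against 4.63 and 11.6 CPM in the old sows, and the ages overlapped.

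PAPSS2, which makes PAPS, was at 47.9 and 26.4 CPM in young replicates 1 and 2 against 3.66 and 24.1 CPM in old replicates 1 and 2. As for SULT1A3, old replicate 1 lay far below the other livers, and the log2 fold change was -1.76 (SE 1.01, adjusted p = 0.507, limma). SLC35B2 and SLC35B3, the PAPS carriers of the Golgi membrane, had log2 fold changes of -0.49 (unadjusted p = 0.0565) and -0.59 (unadjusted p = 0.0427) in limma, with adjusted p of 0.333 and 0.303. BPNT1, which breaks down the spent donor, ranged only from 2.98 to 3.92 CPM.

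Of 17 genes of glutathione synthesis and turnover, 11 had an identifier, 7 with a lower and 4 with a higher mean in old livers (median log2 fold change -0.14). None of the 11 was called by limma or by the exact test of edgeR. Of all mRNAs tested, limma called 0% and the exact test 0.32% lower and 2.04% higher. A count of 0 therefore says little about this list or those below. GCLC, the catalytic subunit of the rate-limiting enzyme of glutathione synthesis, was at 17.3 and 37.2 CPM in the young sows against 7.69 and 16.2 CPM in the old sows, a log2 fold change of -1.11 (SE 0.58, adjusted p = 0.466, limma). GSR, which regenerates reduced glutathione, was at 18.8 and 17.7 CPM in the young sows against 8.94 and 10.7 CPM in the old sows, a log2 fold change of -0.84 (SE 0.14, adjusted p = 0.223, limma). OPLAH, the oxoprolinase of the glutathione cycle, had the opposite order, with 0.762 and 0.578 CPM in the young and 2.21 and 2.53 CPM in the old livers and a log2 fold change of 1.01 (SE 0.14, adjusted p = 0.213, limma).

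**Figure D4:**
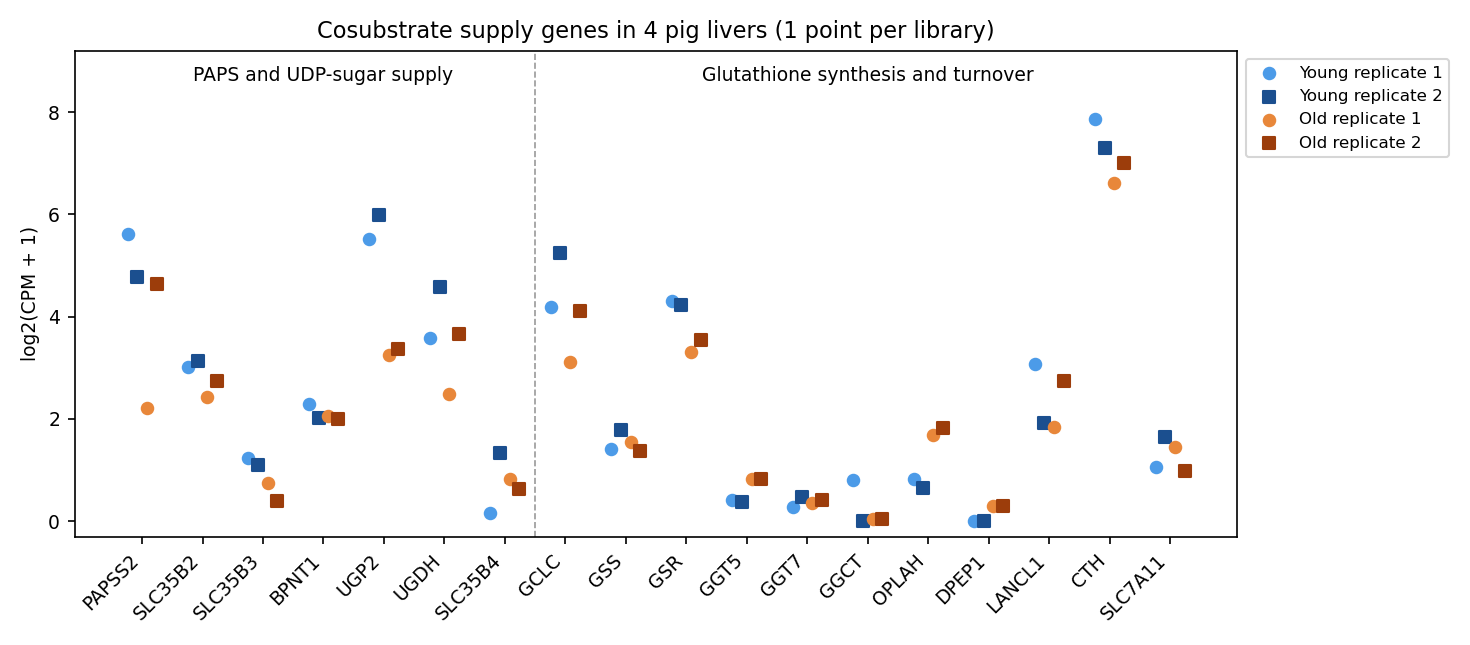
Level as log2(CPM + 1) of the genes that supply PAPS and UDP-sugars (left) and of those of glutathione synthesis and turnover (right), with 1 point per library and no error bars. UGP2 and GSR are lower in both old livers than in both young livers, OPLAH is higher, and PAPSS2 is lowest in old replicate 1.

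Genes that remove or export conjugates were divided. Of 14 listed, 7 had an identifier, none was called by limma or the exact test, and their median log2 fold change was -0.086. ABCC2, the exporter of conjugates into bile, was at 32.1 and 28.9 CPM in the young sows against 15.6 and 20.2 CPM in the old sows (log2 fold change -0.74, SE 0.18, adjusted p = 0.259, limma). ABCC3, which exports them into blood, was at 0.860 and 1.005 CPM in the young sows against 1.79 and 2.81 CPM in the old sows (log2 fold change 0.76, SE 0.21, adjusted p = 0.279, limma). ABCC1, another exporter of this family, was likewise higher in both old livers, at 2.21 and 4.36 CPM against 1.82 and 1.502 CPM.

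Of 15 other conjugating enzymes, 7 had an identifier, 4 with a lower and 3 with a higher mean, none called by either test. AS3MT, the arsenite methyltransferase, was at 17.2 and 15.4 CPM in the young sows against 4.39 and 12.2 CPM in the old sows, TPMT, the thiopurine methyltransferase, at 3.04 and 2.45 against 1.11 and 1.74 CPM, and the rhodanese TST at 113 and 138 against 182 and 143 CPM. Of 13 relatives of the glutathione transferases that the naming rule leaves out, 7 had an identifier and 6 were tested, with 0 calls by either test. Among them LTC4S, the leukotriene C4 synthase, was at 1.26 and 4.81 CPM in the young sows against 15.9 and 15.0 CPM in the old sows (log2 fold change 2.18, SE 0.54, adjusted p = 0.26, limma; adjusted p = 0.0548, exact test of edgeR), and PTGES2, a prostaglandin E synthase, at 3.77 and 4.69 against 7.199 and 6.10 CPM.

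Of 20 regulators of conjugation genes, 17 had an identifier, and their median log2 fold change was -0.00043. Of the 17, 9 had a lower and 8 a higher mean in old livers. Both old livers lay below both young livers for 5 and above for 6, against 25% and 24.4% of all mRNAs tested. Limma called 0 of the 17. By the unadjusted thresholds above it took 2 higher and 0 lower, against 2.79% and 2.96% of all mRNAs tested. The exact test of edgeR called 1, NR0B2, higher, against 2.04% of all mRNAs tested. NR0B2, the small heterodimer partner that represses other nuclear receptors, was at 9.92 and 4.56 CPM in the young sows against 68.7 and 37.3 CPM in the old sows (log2 fold change 2.73, SE 0.52, adjusted p = 0.230, limma; adjusted p = 0.00336, exact test of edgeR). NR1H2, a liver X receptor, was at 4.301 and 4.563 against 15.6 and 14.9 CPM, and CEBPA at 1.45 and 0 against 3.43 and 2.69 CPM. The study names NR1H2 as higher on these samples, so its direction is not independent evidence. Among the 5 lower genes was NFE2L2, which encodes the NRF2 described below. It was at 21.0 and 46.5 CPM in the young sows against 13.3 and 12.3 CPM in the old sows (log2 fold change -1.23, SE 0.45, adjusted p = 0.349, limma).

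Targets of NRF2, the transcription factor that induces many GST genes when electrophiles release it from KEAP1, were divided. Of 13 listed, 10 had an identifier, 5 with a lower and 5 with a higher mean, with 0 calls by either test. NQO1 was at 4.69 and 7.51 CPM in the young sows against 0.845 and 2.24 CPM in the old sows (log2 fold change -1.51, SE 0.41, adjusted p = 0.273, limma).

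Of 6 targets of the aryl hydrocarbon receptor, 4 had an identifier, 3 with a lower mean. Limma called 0 of them and took 3 as lower by the unadjusted thresholds above, against 2.96% of all mRNAs tested. The exact test of edgeR called 1 lower, against 0.32%. The called gene was CYP1A1, at 218 and 415 CPM in the young sows against 28.3 and 32.2 CPM in the old sows, with an adjusted p of 0.000834 in that test and 0.213 in limma. CYP1A2 was at 339 and 554 against 27.7 and 112 CPM. The study names CYP1A1 as lower on these samples, so this list is not independent evidence.

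Markers of the lobule's zones were set beside the transferases, many of which are expressed unevenly along it. Of 12 periportal markers, 8 had an identifier, with a summed level of 2372 and 1858 CPM in the young livers, 537 CPM in old replicate 1 and 1334 CPM in old replicate 2. Old replicate 1 was below both young livers for 7 of these 8 and old replicate 2 for 5, against 35.4% and 35.5% of all mRNAs tested. Of 12 pericentral markers, 9 had an identifier, with sums of 1902 and 2620 CPM in the young livers, 902 CPM in old replicate 1 and 1542 CPM in old replicate 2. Of these 9, old replicate 1 was below both young livers for 5 and old replicate 2 for 3. Both zonal sums, the summed SULT level, GSTA4, GSTZ1 and MGST3 were lowest in old replicate 1. The part of these markers in the transferase values was not tested.

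Markers of other liver cells were summed in the same way. The 4 macrophage markers with an identifier summed to 204 and 226 CPM in the young sows against 290 and 284 CPM in the old sows. Summed levels of cholangiocyte markers (6 with an identifier) were between 9.57 and 19.5 CPM, of T and NK cell markers (10) between 21.7 and 41.6 CPM, of stellate cell and fibroblast markers (7) between 13.9 and 52.5 CPM, and of endothelial markers (6) between 40.9 and 71.8 CPM. Erythroid markers (4, mainly HBB) summed to between 308 and 622 CPM, with the lowest value in old replicate 1.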

How the data were processed

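The authors aligned clean 150 bp paired-end reads to Sscrofa10.2 with TopHat2 2.0.14, assembled transcripts with StringTie 1.2.3 and deposited values named TPM from Salmon 0.6.0. Within each library 100% of the deposited mRNA and lncRNA values were whole multiples of a single step, within 0.1 read, so they were treated as CPM of a total that is not stated, and whole reads were recovered. Strand use in counting is not given in the sources used here.

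Groups followed the sample titles. Old and young livers were compared with limma 3.58.1 on log2(CPM + 1) and, as alternatives, with the exact test (classic dispersions) and quasi-likelihood test of edgeR 4.0.16 (R 4.3.3, Python 3.11.15), all tried on simulated data. Symbols came from the naming table. Named were SULT1B1, the 3 members with the highest mean per family, members of at least 1 CPM without overlap and called members; all others were added for completeness. List genes of at least 1 CPM without overlap were named, at most 3 a list by size, with a few more for their role. Members, lists and tests were chosen with earlier results of these data known. The same-numbered libraries come from different, unrelated animals. CircRNA and miRNA tables were not used here.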

Additional observations from a re-analysis of the deposited data

How the results depend on the processing

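Of 143 refits of the 13 genes under other settings, 141 kept the direction of the log2 fold change. The exceptions, both without young replicate 1, were GSTO2 (-0.035) and GSTT4 (-0.20), whose values with 1 library left out reached 0.52 and 1.35. This count is no measure of robustness, because many of the refits could not change direction. Filters and the replicate block leave the log2 fold change of a gene as it is, and both tests of edgeR give the same one. For genes without overlap between the ages, leaving a library out cannot reverse it either. The number of mRNAs called was 0 by limma, also with any library left out, 2 among mRNAs with a mean of at least 1 CPM, and 399 by the exact test of edgeR. The median log2 fold change of the SULT genes was 0.99 with a pseudocount of 0.1, 1.49 by both tests of edgeR, and -1.10 over SULT genes with a mean of at least 1 CPM, where only SULT1A3 and SULT1C2 remain. The median of all members, -0.17, was 0.22 by both tests of edgeR and -0.86 over members with a mean of at least 1 CPM, and lay between -0.36 and -0.0034 when a library was dropped. The GST median, -0.46, lay between -0.63 and -0.15 when a library was dropped and was -0.26 under TMM scaling. Without SULT1A3 the ratio of old to young summed SULT levels was 2.52 instead of 0.398, in sums that leave out SULT1B1, which was lower in old livers. With 1 library left out and SULT1A3 kept, this ratio ranged from 0.034 (without old replicate 2) to 0.761 (without old replicate 1). For all members this ratio ranged from 0.474 to 0.780. The number of members without overlap ranged from 2 to 7 in the lower and from 3 to 6 in the higher direction with 1 library left out, which makes separation easier by construction. TMM scaling moved the mRNAs past the unadjusted thresholds to 645 higher and 304 lower, from 471 and 500 as deposited. With the replicate number as a block, limma called 0 mRNAs and the adjusted p of SULT1B1 was 0.344. Deviations of same-numbered libraries had r = 0.0902 across 16898 genes, which are not independent replicates, and the numbers were not taken as pairs. The exact tests of SULT1B1 with a library left out were chosen after seeing the data. Depth limits SULT2B1 and SULT4A1, with at most 11 reads per library.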

Other observations

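The level of SULT1A3 in old replicate 1 was compared with all other mRNAs after its values had been seen. It was 57.1-fold below the lowest of the other 3 libraries. Of 9790 mRNAs with a mean of at least 1 CPM, 9 (0.0919%), SULT1A3 included, were at least as far below in old replicate 1, and 11 in old replicate 2. Among the 9, only SULT1A3 had a symbol. Of the others, ENSSSCG00000010549 had the pattern most like it, at 244 and 334 CPM in young replicates 1 and 2, 0.617 CPM in old replicate 1 and 184 CPM in old replicate 2. ENSSSCG00000024080 was at 207 and 260 CPM in the young sows and low in both old livers, at 0 and 0.752 CPM. The remaining genes were at 0 in old replicate 1 and at no more than 22.7 CPM in any library.

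NNMT, which methylates nicotinamide, was singled out after its values were seen for its spread within an age. NNMT was at 303 and 61.5 CPM in young replicates 1 and 2, against 892 and 158 CPM in old replicates 1 and 2.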
